A study of Mus musculus with 2 samples.

Results

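The epithelial barcodes described here were those that carried Sprr2f, a small proline-rich protein of stressed epithelia, or Plet1, a membrane-anchored surface protein of epithelial progenitor cells. A barcode was selected when it held at least 1000 UMIs (unique molecular identifiers, each counted as 1 RNA molecule), at most 50% mitochondrial UMIs and at least 4 UMIs of Sprr2f and Plet1 together. It was left out when Umod and Slc12a1, genes of the thick ascending limb, reached 0.5% of its UMIs, or when Slc12a3 and Calb1, genes of the distal convoluted and connecting tubule, reached 0.3%. It was also left out when the intercalated cell genes Atp6v1g3, Atp6v0d2, Foxi1 and Slc26a4 together held more than 2 UMIs. The rule kept 334 of 7077 barcodes that passed the depth and mitochondrial limits. Sprr2f and Plet1 levels chose the barcodes and are therefore given as a description.

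The collecting duct carries urine through cortex and medulla to the renal pelvis. Its principal cells take up sodium through the epithelial sodium channel and take up water through aquaporin 2 when vasopressin binds its V2 receptor, while intercalated cells move acid and base. The duct opens onto the urothelium of the pelvis, a layered epithelium with uroplakins on its surface and basal keratins below. After ischemia, surviving tubule and duct cells are known to express stress genes such as Lcn2, Spp1, Clu and Krt18.

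Single-cell RNA sequencing was performed on dissociated kidneys of 9-week-old male C57BL/6 mice, killed 24 h after bilateral ischemia-reperfusion. The control mouse received saline and the treated mouse 100 mg/kg JPI-289, an inhibitor of poly(ADP-ribose) polymerase, by intraperitoneal injection just before reperfusion. Each condition was 1 library from a kidney of 1 mouse, so animal, treatment and library cannot be told apart, no test between the conditions was possible, and every interval below covers counting error only. The control library held 38328760 UMIs and the JPI-289 library 35548396 UMIs, over 32285 listed genes.

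In the control library, 72 of 3093 passing barcodes were selected, a share of 2.33% (exact 95% interval 1.83 to 2.92). In the JPI-289 library, 262 of 3984 were selected, a share of 6.58% (exact 95% interval 5.83 to 7.39). Depth also differed. The selected control barcodes held a median of 14300 UMIs, from 1514 to 78737, and a median of 3761 genes. The selected JPI-289 barcodes held a median of 1574.5 UMIs, from 1005 to 28786, and a median of 881 genes. Only 8 control barcodes lay under 2500 UMIs, against 202 JPI-289 barcodes. No barcode sequence was selected in both libraries, and 14 of the passing barcodes were shared between them.

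Most of the shallow JPI-289 barcodes differed less from each other than barcodes of 8 reference populations of similar depth did. Each barcode was compared with the summed profile of its group by a chi-square over its degrees of freedom, a dispersion that is near 1 when barcodes differ by counting error alone. The 202 selected JPI-289 barcodes under 2500 UMIs had a median dispersion of 1.08, a 95th percentile of 4.28 and a highest value of 35.8, and 180 of them lay at or below 1.5. Control barcodes of similar depth had median dispersions of 2.74 for the neutrophil type, 2.11 for the endothelial type, 3.75 for the proximal tubule type and 3.38 for the thick limb type. In the JPI-289 library these medians were 2.28, 1.92, 2.36 and 2.53. The ranges overlapped, since 12 of 334 neutrophil-type, 18 of 95 endothelial-type, 15 of 139 proximal-type and 8 of 72 thick-limb-type JPI-289 barcodes also lay at or below 1.5 around their own profiles. After the summed profile was rebuilt from the barcodes at or below 1.5, 179 remained and are called the repeated profile, so their low dispersion, with a median of 1.04, is set by the limit. Below the depth minimum the limit separated less well, and 67 control and 95 JPI-289 barcodes between 500 and 1000 UMIs lay under it. Among passing barcodes, 244 of the JPI-289 library and 0 of the control library matched the repeated profile.

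**Figure D1:**
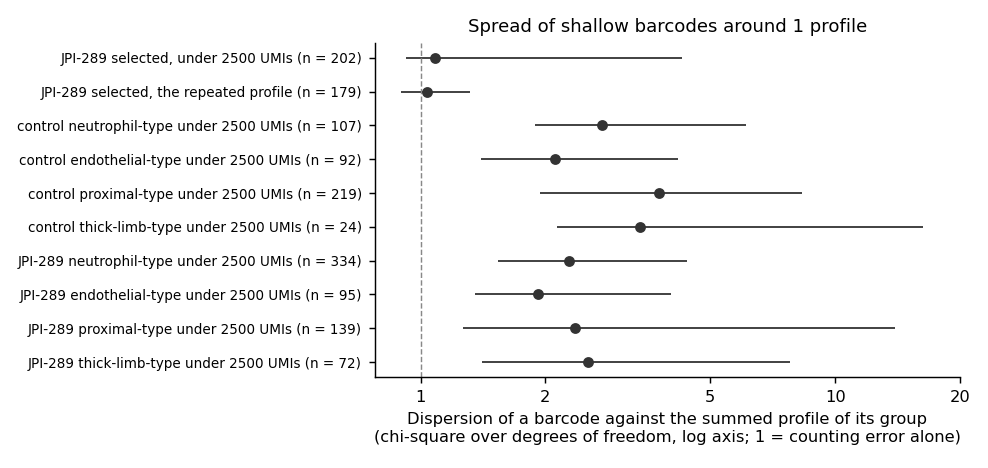
Dispersion of each barcode around the summed profile of its group (log horizontal axis), with the median as a point and the 5th to 95th percentile as a line; the dashed line at 1 marks counting error alone. All 202 shallow selected JPI-289 barcodes have a median of 1.08, while the 8 unfiltered reference populations have medians from 1.92 to 3.75; the 179 of the repeated profile were chosen by a dispersion of at most 1.5.

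The repeated profile mixed genes of several cell types. Summed over the 179 barcodes, which held 1005 to 2118 UMIs each, Sprr2f stood at 3844 CPM (UMIs of the gene per 1000000 UMIs) and Cldn4, a claudin of the collecting duct tight junction, at 2648 CPM. Aqp2, the water channel of principal cells, stood at 2267 CPM. The intercalated cell proton pump subunit Atp6v1g3 was present at 498 CPM, the proximal tubule gene Kap at 464 CPM, and no UMI of the urothelium list was found, which allows up to 11.3 CPM per gene. The rule allowed at most 2 UMIs of the intercalated cell genes per barcode, so the Atp6v1g3 level was capped by the selection. The neutrophil genes S100a9 and S100a8 stood at 879 and 619 CPM, and all 6 genes of the neutrophil list were found, at 1829 CPM in sum. S100a9 was seen in 134 of the 179 barcodes, in 11 of the other 83 selected JPI-289 barcodes and in 1 of 72 selected control barcodes. Barcode sequences within the set differed from their nearest neighbour by at least 2 bases, with a median of 7. The origin of the repeated profile was not tested, and 179 cannot be read as a number of cells. Without all 244 barcodes that matched it, 83 of 3740 JPI-289 barcodes were selected, a share of 2.22% (exact 95% interval 1.77 to 2.74), which overlapped the control interval. All results below leave the repeated profile out unless it is named, an exclusion chosen after the data were seen.

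**Figure D2:**
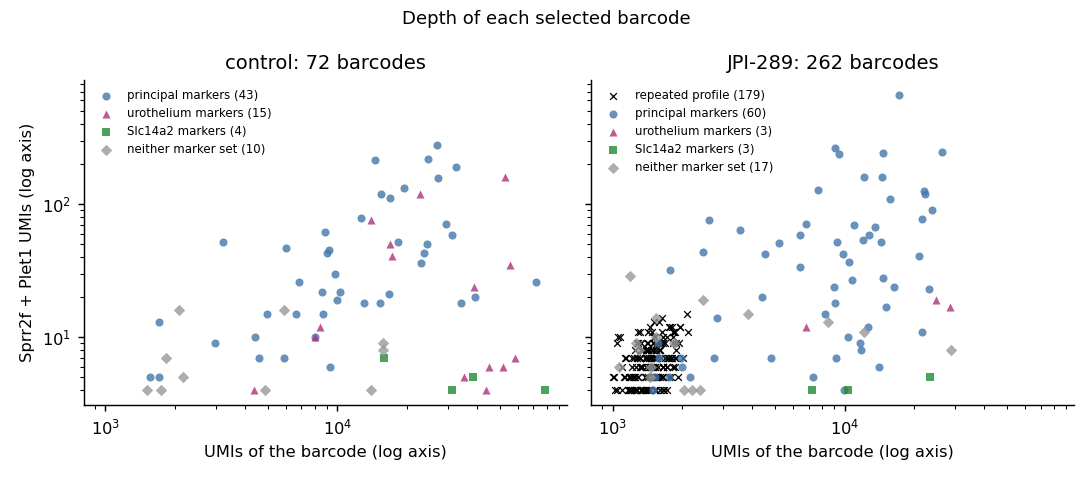
UMIs of each selected barcode (horizontal, log axis) against its Sprr2f and Plet1 UMIs (vertical, log axis), for 72 control and 262 JPI-289 barcodes, with the marker class as colour and the repeated profile as crosses. The 179 repeated-profile barcodes lie between 1005 and 2118 UMIs, and the other 83 JPI-289 barcodes spread over the control range of depth.

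Barcodes just inside and just outside the limit of 4 Sprr2f and Plet1 UMIs both held Cldn4. In the control library, 13 barcodes with 4 or 5 UMIs held Cldn4 at 1333 CPM, and 26 barcodes with 2 or 3 UMIs held it at 1097 CPM. In the JPI-289 library, repeated profile included, 70 barcodes inside held Cldn4 at 2194 CPM and 65 outside at 1246 CPM. Aqp2, in contrast, differed between the libraries at this limit. It stood at 15.4 CPM inside and 58.2 CPM outside in the control, and at 1487 and 1238 CPM in JPI-289. Of all selected barcodes, 48 of 72 (control) and 185 of 262 (JPI-289) carried both genes, whereas 21 and 14 had no Sprr2f and 3 and 63 had no Plet1.

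The 3 most abundant of the marker genes lie on different chromosomes, and the 250 bases before the start of each are shown because the genes were selected or named together. They are RefSeq sequences of build GRCm38.p6, 5′ to 3′ on the strand of the gene, with matches to the AP-1 motif TGANTCA, in which N is any base, in capitals.
Sprr2f, chr3:92364937-92365186, plus strand: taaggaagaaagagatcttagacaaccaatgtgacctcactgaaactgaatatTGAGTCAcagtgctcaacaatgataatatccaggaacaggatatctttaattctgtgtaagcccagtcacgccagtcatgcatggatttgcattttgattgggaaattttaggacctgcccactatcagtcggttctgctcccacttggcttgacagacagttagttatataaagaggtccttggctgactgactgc
Plet1, chr9:50494275-50494524, plus strand: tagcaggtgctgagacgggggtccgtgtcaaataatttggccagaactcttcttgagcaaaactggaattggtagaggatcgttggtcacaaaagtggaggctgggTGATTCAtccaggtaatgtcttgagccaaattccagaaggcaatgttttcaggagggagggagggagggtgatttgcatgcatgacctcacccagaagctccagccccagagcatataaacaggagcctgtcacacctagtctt
Cldn4, chr5:134946935-134947184, minus strand: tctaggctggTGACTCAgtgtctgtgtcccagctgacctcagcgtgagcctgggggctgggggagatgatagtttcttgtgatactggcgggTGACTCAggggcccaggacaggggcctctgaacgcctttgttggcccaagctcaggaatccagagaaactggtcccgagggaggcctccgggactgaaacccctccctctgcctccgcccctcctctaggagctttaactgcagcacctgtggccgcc
An AP-1 match began 197 bases before the start of Sprr2f, 144 bases before Plet1, and 240 and 158 bases before Cldn4. On both strands, 6.75% of 32851 promoter windows of this length held the motif. TATAAA, found in 12.4% of windows, began 29 bases before Sprr2f and 30 bases before Plet1. The KLF motif GGGNGGGG, found in 30.8% of windows, had a match 59 bases before Cldn4. In Blnk, the ETS motif GGAAGT, found in 19.7%, matched 201 bases before the start, and AP-1 letters were not in the window. The Grainyhead-like motif AACCNGTT, found in 1.79%, had no match in these 4 windows. A match describes the letters only.

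The selected barcodes did not form 1 cell type. By their markers, 43 of 72 control barcodes (59.7%) and 60 of 83 JPI-289 barcodes (72.3%) were principal-marker barcodes, which held at least 4 UMIs of Aqp2 and Fxyd4 together and were in neither of the next classes. A further 15 control barcodes (20.8%, exact 95% interval 12.2 to 32.0) and 3 JPI-289 barcodes (3.61%, 0.752 to 10.2) carried urothelium markers, with at least 5 UMIs of that list and more than of Aqp2 and Fxyd4. Slc14a2, the urea transporter of the inner medulla, marked 4 control and 3 JPI-289 barcodes, and 10 and 17 barcodes had neither set. Aqp2 and Fxyd4 defined the largest class, so its fit to the duct part of the label follows from that definition. The urothelium-marker barcodes, also defined by their markers, went against the duct label, and the stress part was not tested by these classes. These classes were drawn after the data were seen.

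The control urothelium-marker barcodes were deep, with a median of 35205 UMIs, and all 10 genes of the urothelium list were found in them, at 17137 CPM in sum. The list chose this class, so the levels of its genes here are a description. Psca, a surface antigen of urothelium, led at 8104 CPM. The basal keratins followed, with Krt5 at 2857 CPM, Krt14 at 1600 CPM and Krt15 at 918 CPM, and so did the uroplakins Upk1b at 1795 CPM and Upk3a at 838 CPM. Basal and surface markers of a layered epithelium were thus both present in the sum, but the basal keratins came from few barcodes. Krt5 was seen in 7 selected control barcodes, Krt14 in 5 and Krt15 in 5. The largest shares from 1 barcode were 25.3%, 40.5% and 52.1% in the same order. Sprr1a, another small proline-rich protein, stood at 11511 CPM and Sprr2a3 at 1640 CPM, whereas Sprr2f was at 559 CPM and Plet1 at 629 CPM. Aqp2 was at 6.35 CPM. Genes of division were also found there. All 14 genes of the G2/M list held UMIs, 694 in all, with Ube2c, which marks mitotic proteins for breakdown, at 226 CPM. Ube2c was seen in only 7 selected control barcodes, and the barcode with most of its UMIs held 57.0% of them. In the 3 JPI-289 barcodes the urothelium list stood at 1850 CPM with Psca at 983 CPM, Krt14 and Trp63 were at 0, which allows up to 50 CPM, and none of the 14 G2/M genes was detected at this depth. Clu, a secreted chaperone, stood at 31970 CPM in these 3 barcodes and at 14656 CPM in the 15 control ones. Wfdc2, a secreted protease inhibitor, stood at 19819 and 7814 CPM in the same order.

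The Slc14a2 barcodes were defined by that gene, so its level in them is a description. Slc14a2 stood at 3963 CPM in 4 control and 6191 CPM in 3 JPI-289 barcodes. Cryab, a small heat shock protein abundant in inner medulla, stood at 5653 and 3842 CPM. Bst1, a surface enzyme that cleaves NAD, stood at 815 and 1150 CPM. These barcodes met the rule through Plet1 alone, at 122 CPM (control) and 318 CPM (JPI-289), since Sprr2f and Aqp2 were at 0 in both, which allows up to 18.2 and 73.4 CPM. In the class with neither set, Klk1, the kallikrein of the connecting tubule, stood at 18452 CPM among control barcodes and at 3414 CPM among JPI-289 barcodes. Cryab stood at 6100 and 4307 CPM there, so it was not particular to the Slc14a2 barcodes. Krt20, a keratin of injured tubules and surface urothelium, stood at 654 and 667 CPM in the class with neither set.

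Because the classes differed in number between the libraries, a sum over all selected barcodes compares mixtures. With the repeated profile included, 763 of 8706 measured genes (8.76%), those with at least 20 UMIs over both libraries, were at least 2-fold higher in JPI-289 and 1397 (16%) at least 2-fold lower. Thinning to 1000 UMIs per barcode turned the balance, to 454 higher and 202 lower. Without the repeated profile, the counts were 618 of 8402 (7.36%) and 1371 (16.3%). All 10 genes of the urothelium list were at least 2-fold lower, with a median log2 ratio of -4.60, or -4.44 with genes at 0 placed at their bound. All 12 measured G2/M genes were lower too, with a median of -5.42, or -3.84 with the 7 genes at 0 placed at their bound. Among them, Ube2c held 107 control UMIs, from 7 barcodes, and 0 JPI-289 UMIs. The control barcode with most of its UMIs held 57.0% of them. Krt5 held 1350 control UMIs, from 7 barcodes, and 1 JPI-289 UMI. Krt14 held 756 control UMIs, from 5 barcodes, and 0 JPI-289 UMIs, and was at least 145-fold lower. Psca held 3829 and 59 UMIs, and Sprr1a 5477 and 138 UMIs, the JPI-289 values with the repeated profile included. Ly6d, a surface protein of layered epithelia, held 698 and 3 UMIs. The cytokine Il1b, the gene of a neutrophil and macrophage product, held 0 control and 167 JPI-289 UMIs with the repeated profile and fewer than 20 UMIs in all without it. Cxcl2, a neutrophil chemokine, stood at a log2 ratio of 2.56 with the repeated profile and -0.23 without it.

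The principal-marker barcodes allowed the closest comparison between the libraries. The 43 control barcodes held 671205 UMIs and the 60 JPI-289 barcodes 613634 UMIs, with median depths of 10219 and 9673.5 UMIs. The principal cell list stood at 14867 CPM in the control and 10937 CPM in JPI-289, and the urothelium list held 7 and 4 UMIs. No barcode drew more than 0.403% of its UMIs from the lists of other cell types that were counted. That share left out the distal convoluted and connecting tubule, thin limb and urothelium lists. The upper limit of free RNA, taken from genes that other cell types own, was 0.289% in the control and 0.922% in JPI-289. Of 6673 measured genes, 565 (8.47%) were at least 2-fold higher in JPI-289 and 820 (12.3%) at least 2-fold lower, and the median log2 ratio was -0.02. The balance turned with the genes that entered, with 287 higher and 223 lower at a gene minimum of 50 UMIs and 67 and 45 after thinning to 1000 UMIs per barcode.

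Of the 5 marker genes, 4 were higher in the JPI-289 principal-marker barcodes and Plet1 was not. Sprr2f stood at 2707 CPM in the control and 5598 CPM in JPI-289, a log2 ratio of 1.05 (95% interval 0.97 to 1.13). Per barcode, Sprr2f ranged from 0 through a median of 1424 to 14565 CPM in the control and from 0 through 3358 to 37998 CPM in JPI-289, so the libraries overlapped. Plet1 stood at 898 and 779 CPM, a log2 ratio of -0.21 (-0.38 to -0.03). Because these 2 genes chose the barcodes, their ratios are descriptions. Other members of the Sprr2 family are near-identical in sequence, and reads could be split between them, so single Sprr2 levels are uncertain.

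Cldn4 was higher in JPI-289, with 1898 CPM in the control and 3548 CPM in JPI-289, a log2 ratio of 0.90 (0.80 to 1.00). Blnk, an adaptor best known from B-cell receptor signalling, stood at 189 and 570 CPM, a log2 ratio of 1.59 (1.30 to 1.90). Rab11fip1, an effector of Rab11 in recycling endosomes, stood at 76.0 and 430 CPM, a log2 ratio of 2.49 (2.06 to 2.96), and was seen in 23 of 43 and 50 of 60 barcodes. The same direction was found in the other passing barcodes without the repeated profile, which are the barcodes outside the selection in all comparisons of this kind below. Their log2 ratios were 0.82 for Cldn4, 1.26 for Blnk and 1.30 for Rab11fip1. Sprr2f stood at 0.21 there, in barcodes whose Sprr2f and Plet1 UMIs the rule itself mostly capped. Outside the selection, Rab11fip1 stood at 17.4 CPM in the control and 42.8 CPM in JPI-289. Both values lay below its level in free RNA (barcodes under 100 UMIs), at 31.7 and 72.7 CPM. In neutrophil-type barcodes it stood at 142 and 143 CPM, so its difference was not found in every cell type. How far such differences outside the selection enter the values of the selected barcodes was not tested.

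**Figure D3:**
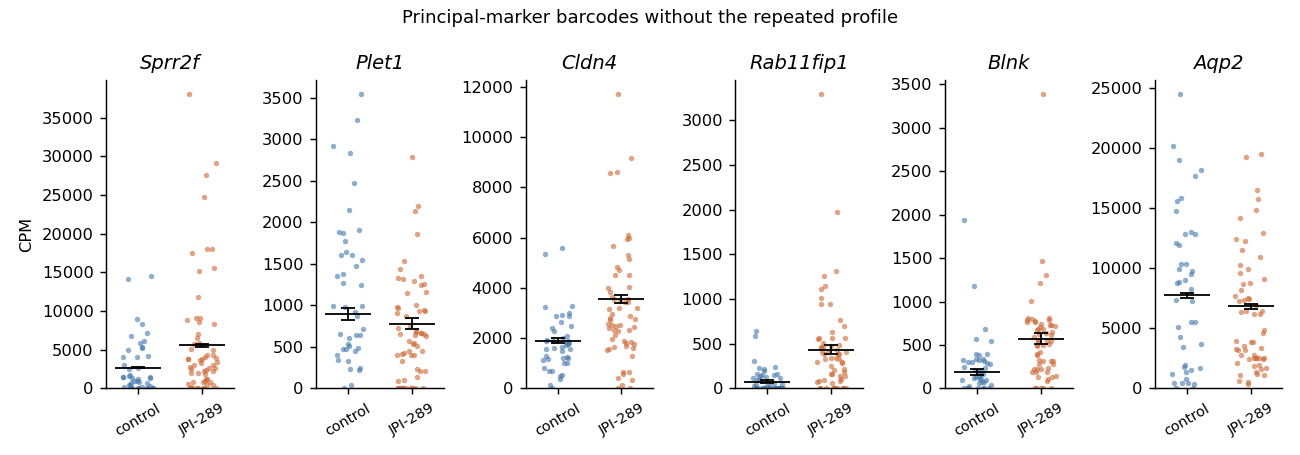
CPM of 6 genes in each principal-marker barcode (points; 43 control, 60 JPI-289, repeated profile left out), with the pooled CPM as a bar and its exact 95% Poisson interval. The pooled level of Sprr2f is 2707 CPM in control and 5598 CPM in JPI-289, that of Plet1 is 898 and 779 CPM, and points of both libraries overlap in all 6 panels.

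Detection was compared after each barcode was thinned to 1000 UMIs. Sprr2f was seen in 38.9% of 72 selected control barcodes and in 71.1% of 83 JPI-289 barcodes, against 1.05% and 1.82% of neutrophil-type barcodes, which should lack it. Because Sprr2f chose the barcodes, these shares are a description. Without thinning, Sprr2f was seen in 70.8% and 83.1% of selected barcodes, whose median depths were 14300 and 8980 UMIs. The neutrophil-type shares were then 1.58% and 5.30%, at medians of 2325.5 and 2316.5 UMIs. Rab11fip1, which the rule did not use, was seen in 56.9% of control and 83.1% of JPI-289 selected barcodes without thinning. After thinning, it was seen in 6.94% of control and 36.1% of JPI-289 selected barcodes. Thinned neutrophil-type barcodes carried it in 13.2% and 14.1% and thinned endothelial-type ones in 0.865% and 0.270%. Only the endothelial-type shares therefore serve as a background for this gene.

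Of 12 measured genes of the principal cell list, 7 were at least 2-fold lower in JPI-289 principal-marker barcodes and 0 higher, with a median log2 ratio of -1.60 against -0.02 for all measured genes, of which 12.3% were lower. The 7 were Avpr2, Aqp4, Hsd11b2, Scnn1g, Npnt, Apela and Elf5, and the last 3 encode a matrix protein, a peptide ligand and a transcription factor. Avpr2, the vasopressin V2 receptor, held 96 control UMIs (143 CPM) and 8 JPI-289 UMIs (13.0 CPM), a log2 ratio of -3.38 (-4.71 to -2.42). It was seen in 27 of 43 and in 6 of 60 barcodes. Aqp4, a water channel of the basolateral membrane, was seen in 29 and 13 barcodes and had a log2 ratio of -2.87. Hsd11b2, the enzyme that inactivates glucocorticoids in aldosterone target cells, stood at 1333 and 293 CPM, a log2 ratio of -2.18.

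Aqp2, Fxyd4, Scnn1a and Scnn1b were among the genes that did not pass the limit. Aqp2 stood at 7767 and 6851 CPM, a log2 ratio of -0.18, with per-barcode medians of 8304 and 4739 CPM. Fxyd4, a regulator of the sodium pump in the duct, had a log2 ratio of -0.58. Both genes defined the class, so their ratios are descriptions. Among the subunits of the epithelial sodium channel, Scnn1a stood at 0.76, Scnn1b at -0.43 and Scnn1g at -1.49. Of the lower genes named above, Npnt, a matrix protein of the duct basement membrane, stood at -2.14 and Apela, a peptide ligand of the apelin receptor, at -2.45. Outside the selection, Avpr2 had a log2 ratio of -2.52, Hsd11b2 of -2.53 and Aqp4 of -3.10, while Aqp2 stood at -0.05 and Scnn1a at 0.87. The levels behind 2 of these ratios were very low, at 2.64 and 0.43 CPM for Avpr2 and 2.90 and 0.31 CPM for Aqp4. In the control both lay below free RNA, which held Avpr2 at 4.53 CPM and Aqp4 at 11.3 CPM.

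Of the 10 named genes with the highest intervals, Nfe2l2 held the most UMIs. Nfe2l2, which encodes the oxidative stress factor NRF2, held 184 control and 621 JPI-289 UMIs, or 274 and 1012 CPM, a log2 ratio of 1.88 (1.64 to 2.13). It was seen in 37 of 43 control and 58 of 60 JPI-289 barcodes, and its log2 ratio outside the selection was 1.32. Zfp52, a zinc finger protein, held 7 and 103 UMIs, a log2 ratio of 3.92 (2.91 to 5.36), beside 2.87 outside the selection. Nr1d1, a repressor of the circadian clock, held 21 and 116 UMIs, a log2 ratio of 2.57, beside 2.06 outside. Per1, another clock gene named over all selected barcodes, had a log2 ratio of 2.21 in principal-marker barcodes.

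Grp, which encodes gastrin-releasing peptide, held 67 and 338 UMIs, a log2 ratio of 2.46, and all of its control UMIs in the selection came from principal-marker barcodes. It was seen in 20 of 43 and 28 of 60 barcodes, with a median of 0 in both libraries. Gsta1 and Gsta2, glutathione transferases with near-identical copies that could share reads, had log2 ratios of 2.82 and 2.42. Outside the selection, Gsta2 went the other way, at -1.03. Ptbp2, a splicing regulator, and Tatdn2, a nuclease, stood at 2.96 and 2.68. Igfbp3, which binds insulin-like growth factors, had a log2 ratio of 3.66, but 84.9% of its 86 JPI-289 UMIs came from 1 barcode.

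The genes named for the lowest intervals included Avpr2 and Aqp4. Idh1, the cytosolic NADP-dependent isocitrate dehydrogenase, held 111 and 13 UMIs, a log2 ratio of -2.92. Tbck, a kinase-like regulator of growth signalling, held 85 and 4 UMIs, a log2 ratio of -4.12. Atp6v1b1, a proton pump subunit typical of intercalated cells, held 76 and 5 UMIs, and Tmem52b, a membrane protein, 59 and 5 UMIs. Some of the named genes rested on few barcodes. Timp1, an inhibitor of matrix proteases, held 51 and 1 UMIs, and 86.3% of the control UMIs came from 1 barcode. Tm4sf1, a membrane protein of migrating cells, held 48 and 2 UMIs, with 54.2% from 1 control barcode. S100a6, a calcium-binding protein, stood at a pooled log2 ratio of -2.19, while its median per barcode was 363 CPM in the control and 435 CPM in JPI-289.

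**Figure D4:**
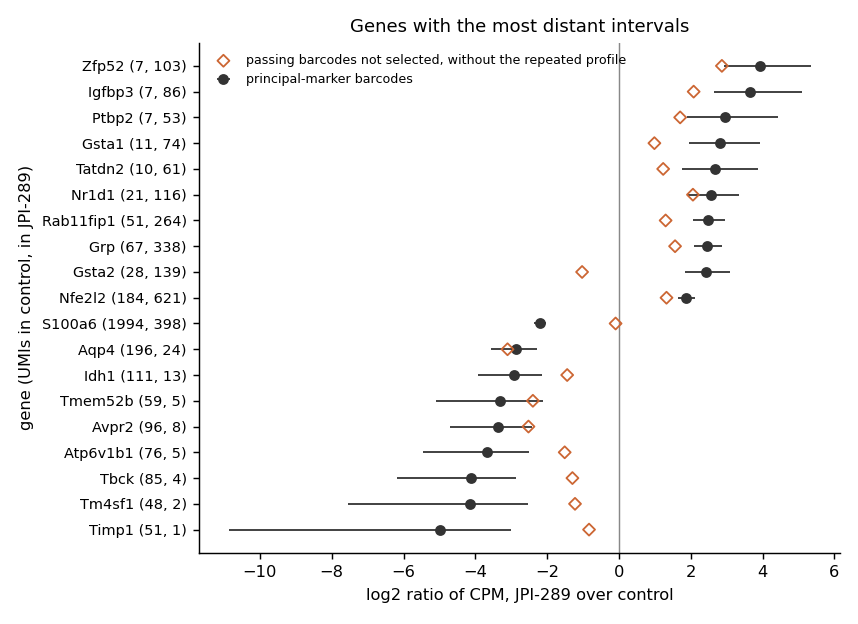
Log2 ratio of CPM, JPI-289 over control, for the 19 genes named by their intervals in principal-marker barcodes (filled points, 95% binomial intervals; UMIs in control and JPI-289 after each name), beside the ratio in passing barcodes that were not selected, without the repeated profile (open diamonds). Most diamonds lie on the same side of 0 as the points and nearer to it, whereas Gsta2 lies at -1.03 outside the selection and 2.42 within it.

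Of 11 measured genes of the NRF2 list, which holds antioxidant genes, 3 were at least 2-fold higher and 0 lower, beside 8.47% and 12.3% of all measured genes. All 11 had a log2 ratio above 0, and their median was 0.82 against -0.02. Txnrd1, thioredoxin reductase, stood at 299 and 1020 CPM, a log2 ratio of 1.77, with 34 of 43 and 55 of 60 barcodes carrying it. Pgd, an enzyme of the pentose phosphate pathway that makes NADPH, stood at 1.66, and Gclm, a subunit of the enzyme that starts glutathione synthesis, at 1.05. Hmox1 and Nqo1, which break down heme and reduce quinones, stood at 0.95 and 0.99. Srxn1, which restores peroxiredoxins, was at 0.18 in principal-marker barcodes and at 2.32 outside the selection. Over all selected barcodes without the repeated profile, 2 of the 11 genes were at least 2-fold higher, beside 7.36% of all measured genes, and the median was 0.42.

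The p53 list had 2 of 11 measured genes at least 2-fold higher and 0 lower, beside 8.47% and 12.3% of all measured genes, and a median of 0.22. Cdkn1a, an inhibitor of the cell cycle, stood at 119 and 461 CPM, a log2 ratio of 1.95 (1.59 to 2.33), and was seen in 25 of 43 and 48 of 60 barcodes. Its log2 ratio outside the selection was 1.52. Mdm2, the ligase that degrades p53, stood at 0.48, and Gdf15, a secreted stress signal, at -0.13. No measured gene of the G1 and S phase lists was at least 2-fold higher. Ccnd1, the G1 cyclin D1, stood at 530 and 132 CPM, and its log2 ratio outside the selection was -2.11. Of 6 measured G1 genes, 2 were at least 2-fold lower and 0 lay above 0. Of 8 measured S phase genes, 3 were at least 2-fold lower and 3 lay above 0, with Mcm7 of the replicative helicase at 20 and 1 UMIs, and no G2/M gene reached the 20 UMIs needed.

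**Figure D5:**
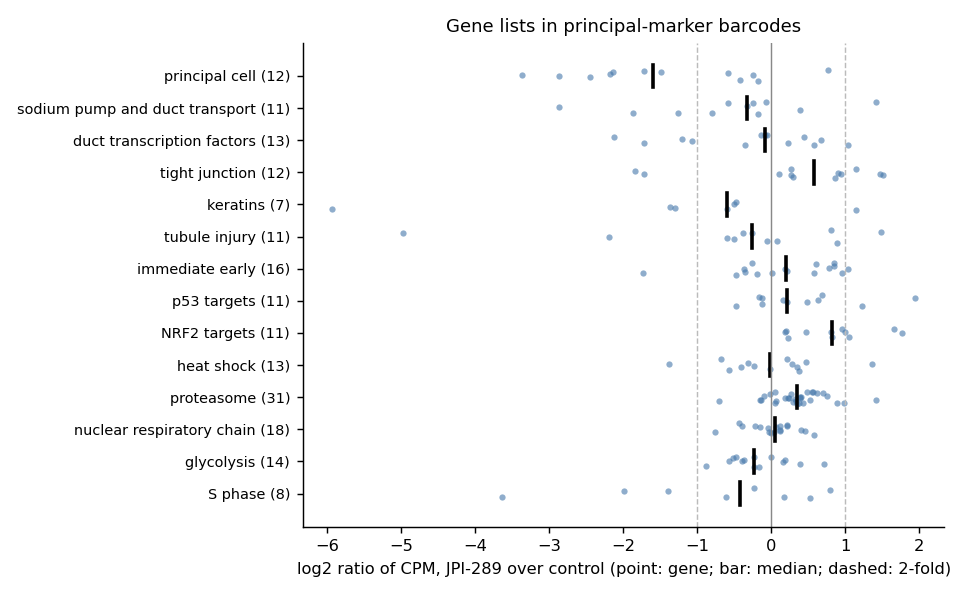
Log2 ratio of CPM, JPI-289 over control, for each measured gene (points) of 14 gene lists in principal-marker barcodes; the bar is the median of the list and dashed lines mark 2-fold. The principal cell list has a median of -1.60 with 7 of 12 genes past 2-fold lower, and the NRF2 list a median of 0.82 with all 11 genes above 0.

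Of 12 measured tight junction genes, 3 were at least 2-fold higher and 2 at least 2-fold lower, beside 8.47% and 12.3% of all measured genes. The ratio of 10 of the 12 lay above 0, and the median log2 ratio was 0.58. Cldn7, a claudin of the basolateral membrane, stood at 907 and 1749 CPM, a log2 ratio of 0.95. Marveld2, the protein of contacts between 3 cells, stood at 1.51, Pard6b of the polarity complex at 1.47 and Ocln, occludin, at 1.15. In contrast, Cldn8, the claudin that bars paracellular sodium in the duct, stood at -1.84 and Tjp3, a junction scaffold, at -1.72. Cdh1, E-cadherin, was the 1 gene of 13 in the adhesion list past 2-fold, at a log2 ratio of 1.09, while Epcam stood at 0.05. Of 9 measured genes of Rab11 recycling, 3 were at least 2-fold higher, Rab11fip1 among them with Rab11fip5 at 1.29 and Myo5b, the motor of recycling endosomes, at 1.15, and 1 was lower, Rab11fip4 at -1.21. Only 4 of the 9 lay above 0, and the median was -0.34.

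Of 11 measured genes of the tubule injury list, 1 was at least 2-fold higher and 2 lower, beside 8.47% and 12.3% of all measured genes, with a median log2 ratio of -0.26. The lower ones were Timp1, with 86.3% of its control UMIs in 1 barcode, and S100a6, whose median per barcode was not lower. Spp1, osteopontin, was found in all barcodes of both libraries at 19119 and 33452 CPM, a log2 ratio of 0.81. Its per-barcode medians lay farther apart, at 8717 CPM in the control and 30605 CPM in JPI-289. Lgals3, galectin 3, stood at 1.48. Lcn2, a protein that binds bacterial iron carriers, stood at 16722 and 11010 CPM, a log2 ratio of -0.60, with per-barcode medians of 6666 and 5373 CPM. Of its control UMIs, 35% came from 1 barcode, and the ratio outside the selection was 0.92. Among 7 measured keratins, 1 was at least 2-fold higher, Krt23 at 1.14, and 3 were lower, with Krt19 at -1.37. Krt17 held 33 control and 0 JPI-289 UMIs, at least 10.1-fold lower, but all 33 came from 1 barcode. Krt18, a keratin of simple epithelia, stood at a pooled log2 ratio of -0.60 with per-barcode medians of 1247 and 1288 CPM.

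Transcription factors and transport genes gave mixed values. Of 13 measured duct transcription factors, 1 was at least 2-fold higher and 4 lower, beside 8.47% and 12.3% of all measured genes, with Grhl2 at -2.13, Elf5 at -1.72, Tfcp2l1 at -1.07 and Pax8 at 1.04. Ehf and Elf3 were at -0.14 and -0.09. Of 11 genes of the sodium pump and duct transport, 1 was at least 2-fold higher and 3 lower. Car2, carbonic anhydrase 2, stood at 1.42 and at -1.26 outside the selection, and Fxyd2, the gamma subunit of the sodium pump, at -1.87 with 85.1% of control UMIs from 1 barcode. Without the barcode with most of its UMIs in each library, Fxyd2 turned to 0.24 and its call was lost. Of 7 genes of osmotic response, 2 were at least 2-fold higher and 1 lower, against the same shares, with the amino acid transporter Slc38a2 at 1.22 and the kinase Sgk1 at 1.33.

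The other lists are read beside 8.47% higher and 12.3% lower of all measured genes. Of 31 measured proteasome genes, 26 lay above 0 with a median of 0.34, and only Psmd11 passed 2-fold, at 1.41. The nuclear respiratory chain had a median of 0.05 over 18 genes and glycolysis a median of -0.23 over 14, with 0 genes past 2-fold in either. Immediate early genes had 1 of 16 at least 2-fold higher, Klf4 at 1.04, and 1 lower, Fosb at -1.73, with a median of 0.20. Heat shock genes had 1 of 13 in each direction. Atf4, the factor of the integrated stress response, was the 1 of 11 genes of its list past 2-fold, at 1.41.

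Of 10 measured NF-kB targets and chemokines, 1 was at least 2-fold higher and 3 lower, with a median of -0.09. Cxcl1, a neutrophil chemokine, held 22 and 5 UMIs, a log2 ratio of -1.90, and Il34, a ligand of the macrophage growth factor receptor, held 6 and 14 UMIs, a log2 ratio of 1.29. Of 4 measured genes of the PARP family list, the family that JPI-289 acts on, 1 was at least 2-fold higher and 1 lower. Tnks, tankyrase, held 17 and 33 UMIs, a log2 ratio of 1.07, and Parp9 held 14 and 6 UMIs, a log2 ratio of -1.03. Among 15 actin genes, 1 was at least 2-fold higher, Ezr at 1.08, and 2 were lower, Tmsb10, which binds actin monomers, at -1.61 and Cnn2, a calponin, at -3.24 with 63.0% of its control UMIs in 1 barcode. Of 3 ligands of the EGF receptor, Btc, betacellulin, held 55 and 12 UMIs, a log2 ratio of -2.02, beside -3.88 outside the selection. The 6 genes of the MHC and interferon list, 5 of antimicrobial defence and 2 metallothioneins had 0 past 2-fold in either direction. Of 4 measured endothelial genes, 2 were at least 2-fold higher, Emcn with 10 and 25 UMIs and Egfl7 with 7 and 18 UMIs. In both libraries at least 50% of the Emcn UMIs came from 1 barcode, and for Egfl7 the shares were 57.1% and 66.7%.

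Other barcodes of the same libraries showed where the selected barcodes differ. These contrasts partly use the genes that chose the barcodes and are descriptions. Against all other passing barcodes, 805 of 12381 genes (6.5%) were at least 2-fold higher in the selected barcodes of both libraries and 1931 (15.6%) lower. With the repeated profile the counts were 800 of 12421 (6.44%) and 1824 (14.7%). All 5 marker genes, all 10 measured principal cell genes and 12 of 17 tight junction genes were higher in both, while 2 tight junction genes were lower. All 11 proximal tubule, 8 endothelial, 7 stromal and 6 neutrophil genes were lower in both. Upk1b, Psca, Msln, Fxyd3, S100a14 and Krt19 were among the 12 highest. All 848 selected control UMIs of Upk1b and all 3829 of Psca came from the 15 urothelium-marker barcodes.

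Injured proximal tubule barcodes, defined by Havcr1 and Krt20, numbered 82 in the control and 487 in JPI-289. Against them, 958 of 8804 genes (10.9%) were at least 2-fold higher in both libraries and 859 (9.76%) lower. With the repeated profile the counts were 1028 of 8869 (11.6%) and 848 (9.56%). Of 16 measured tight junction genes, 11 were higher and 2 lower, of 13 adhesion genes 10 were higher and 0 lower, and of 16 immediate early genes 11 were higher and 0 lower. NRF2 genes lay on the other side, with 4 of 11 at least 2-fold lower in the selected barcodes of both libraries and 0 higher, and list medians of -0.77 in the control and -1.10 in JPI-289. Of 13 tubule injury genes, 8 were higher and 2 lower.

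Principal-type barcodes without enough Sprr2f and Plet1 numbered 27 among control and 40 among JPI-289 barcodes, and 16 of the latter matched the repeated profile. The control set held Kap, an androgen-regulated proximal tubule gene, at 25965 CPM and Aqp2 at 281 CPM. Its proximal tubule list stood at 32039 CPM and its principal cell list at 956 CPM. The JPI-289 set, repeated profile included, held Aqp2 at 4676 CPM and Klk1 at 11524 CPM. The comparator thus differed in composition between the libraries despite its shared name, and the counts below are descriptions. Without the repeated profile on either side, which left 24 JPI-289 comparator barcodes, 239 of 5296 genes (4.51%) were at least 2-fold higher in the selected barcodes of both libraries and 39 (0.736%) lower. With it, the counts were 250 of 5989 (4.17%) and 40 (0.668%). Slc14a2, Msln, Psca, Bst1, Lif and Fxyd3 were among the 12 highest genes beside Sprr2f, and Pth1r, Cyp4b1, Abcg2 and Kl, genes abundant in proximal or distal tubule, were among the lower ones.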

How the data were processed

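The authors aligned reads with Cell Ranger 5.0.1 to mm10 per the submitters' processing notes, and deposited unfiltered matrices of UMI counts per gene and barcode. Barcodes were kept and selected by the limits given above. No doublet caller was run, and no barcode was removed as a doublet. Counts were summed per library, and CPM is counts divided by the UMIs of those barcodes. Log2 ratios used a pseudocount of 0.5 UMIs, and genes with at least 20 UMIs over both libraries were measured against a 2-fold limit. Ratios carry exact 95% binomial intervals and levels exact 95% Poisson intervals. A library at 0 was set to a floor of 3 UMIs over the group, giving a bound.

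The selection, gene lists and rules were chosen with earlier results of these data known. The repeated profile and marker classes were defined after the data were seen. Named genes were the 10 in each direction whose interval lay farthest from 0 among those with at least 50 UMIs, without mitochondrial genes and markers of other cell types, and, per list, the most abundant and most different genes. A gene that the rule chose is not reported here. Genes against principal-type barcodes were the 12 highest and 8 lowest over both libraries. Alternatives varied the UMI limits, gene minimum, scaling and thinning. The exclusions of the repeated profile, of marker classes and of the barcode with most UMIs were added after the data were seen. Python 3.11.15, numpy 2.4.6, scipy 1.17.1, pandas 2.3.3 and matplotlib 3.10.9 were used, and scripts were tested on simulated data.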

Additional observations from a re-analysis of the deposited data

Results flagged for a closer look

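Outside the selected barcodes, 65 further passing JPI-289 barcodes matched the repeated profile, and no passing control barcode did. Of these, 41 exceeded the limit on intercalated cell genes, 29 held fewer than 4 Sprr2f and Plet1 UMIs, and 16 were principal-type barcodes. Their origin was not tested.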

How the results depend on the processing

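No paired analysis was possible because each condition was 1 library, and for the same reason no library could be left out. Counts below are genes at least 2-fold higher and lower. The selected share of the control library (2.33%) was 1.65% at a minimum of 8 Sprr2f and Plet1 UMIs, 3.17% at 2, 1.55% with each gene required and 3.34% at a depth minimum of 2000 UMIs. The JPI-289 share (6.58%) was 3.11%, 8.21%, 4.64% and 2.87% under the same settings and 2.22% without the repeated profile. For all selected barcodes with the repeated profile (763 higher, 1397 lower), thinning gave 454 and 202, a gene minimum of 50 UMIs gave 610 lower, a minimum of 5 gave 2601 lower, and principal-marker barcodes without that profile, a change of both choices, gave 820 lower. For principal-marker barcodes (565 and 820), thinning gave 67 and 45, a minimum of 50 gave 287 and 223, and a minimum of 5 gave 912 and 2114. Against principal-type barcodes with the repeated profile (250 and 40), a minimum of 8 marker UMIs gave 81 higher, a minimum of 2 gave 64 lower, leaving out mitochondrial genes 62 lower, centring 84 lower and means per barcode 76 lower. There, thinning gave 10 and 8, a gene minimum of 50 gave 110 and 11, and a minimum of 5 gave 511 and 167. Thinning and the gene minimum change how many genes enter, and the cause of the other shifts was not tested. Without the barcode that held most of its UMIs, Fxyd2 turned to a log2 ratio of 0.24 in principal-marker barcodes, and Krt17 was at 0 in both libraries, which gives no ratio. Shallow barcodes limit detection in the JPI-289 library.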
